A study of Mus musculus with 3 samples.

Results

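Antioxidant, thioredoxin, glutathione and metallothionein genes were described in polyadenylated RNA from microvascular fragments of mouse brain. The 42 genes were chosen by symbol: superoxide dismutases and catalase, glutathione peroxidases, peroxiredoxins, the thioredoxin and glutathione systems, the Nrf2 axis, selenoproteins, metallothioneins and NADPH oxidase subunits. All 42 were found among the 56941 genes of the count table. The 3 libraries came from 3 adult wild-type C57BL/6J mice, 1 library per mouse, and form a single untreated group. Microvascular fragments are short pieces of small vessel, freed here from brain tissue by mechanical and enzymatic dissociation, that keep endothelium together with attached cells. No whole brain, sorted cells or treated animals stand beside them, so levels could be compared between genes and between mice, and not between conditions. The labels give no sex, exact age or batch.

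Oxidative metabolism releases superoxide, which superoxide dismutases turn into hydrogen peroxide. Catalase, glutathione peroxidases and peroxiredoxins then remove the peroxide. For the glutathione peroxidases and peroxiredoxins, thioredoxin and glutathione supply the electrons and are themselves reduced at the cost of NADPH. The transcription factor NRF2, held in check by KEAP1, drives many of these genes through antioxidant response elements, while MTF1 drives metallothioneins through metal response elements. Brain endothelium is rich in mitochondria and faces the oxygen of the blood.

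Promoters of the metallothionein genes, which encode small cysteine-rich proteins that bind zinc and copper, are shown first. Whether their sequences bear on the levels of the 3 genes was not tested. The windows run from 250 bases before to 50 bases after the annotated start and were taken from RefSeq on build GRCm38.p6, which is not the build of the counts. Capitals mark the core of the metal response element, TGCACNC or TGCGCNC, on either strand.
Mt1, chr8:94178839-94179138, plus strand: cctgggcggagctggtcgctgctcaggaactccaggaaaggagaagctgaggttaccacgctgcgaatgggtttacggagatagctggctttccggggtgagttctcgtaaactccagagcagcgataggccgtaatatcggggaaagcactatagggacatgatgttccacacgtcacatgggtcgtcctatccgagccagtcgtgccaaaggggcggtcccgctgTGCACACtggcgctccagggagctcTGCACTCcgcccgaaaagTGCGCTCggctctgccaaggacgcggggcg
Mt2, chr8:94172368-94172667, plus strand: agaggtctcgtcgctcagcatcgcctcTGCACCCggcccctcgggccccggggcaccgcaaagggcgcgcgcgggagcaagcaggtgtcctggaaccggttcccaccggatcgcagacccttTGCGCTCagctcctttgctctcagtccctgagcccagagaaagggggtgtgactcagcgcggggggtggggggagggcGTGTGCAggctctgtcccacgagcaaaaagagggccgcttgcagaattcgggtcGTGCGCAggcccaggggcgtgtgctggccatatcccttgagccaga
Mt3, chr8:94152357-94152656, plus strand: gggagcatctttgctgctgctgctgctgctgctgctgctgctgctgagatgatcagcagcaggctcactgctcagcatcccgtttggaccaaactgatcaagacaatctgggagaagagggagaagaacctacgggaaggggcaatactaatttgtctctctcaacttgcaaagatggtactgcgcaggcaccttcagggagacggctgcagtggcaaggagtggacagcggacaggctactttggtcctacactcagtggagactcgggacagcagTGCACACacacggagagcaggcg
Within these windows Mt1 held 3 matches, Mt2 held 4 and Mt3 held 1. Sequence outside the windows was not searched, so these are not counts for whole promoters. At least 1 match was found in 25.7% of all 32851 windows in the table, and 3 or more in 1.97%. Of the 42 genes, 38 had a window, and 14 of these 38, in 15 of 53 windows, held a match. Gclm was the other gene with 3 matches.

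The core of the antioxidant response element, TGACNNNGC, was found in 7 of the 53 windows, each of a different gene, against 12.4% of all windows. The 7 genes were Gclm, Mt2, Nfe2l2, Prdx1, Sod1, Srxn1 and Txnrd1. Stretches of 60 bases are shown for 4 genes known as NRF2 targets. Capitals mark the match, which in each of these stretches reads on the opposite strand.
Srxn1, chr2:152105514-152105573, plus strand: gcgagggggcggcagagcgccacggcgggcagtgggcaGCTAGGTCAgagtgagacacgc
Gclm, chr3:122245397-122245456, plus strand: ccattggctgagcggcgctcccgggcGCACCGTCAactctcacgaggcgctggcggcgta
Txnrd1, chr10:82859088-82859147, plus strand: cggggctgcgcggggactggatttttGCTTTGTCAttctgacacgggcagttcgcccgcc
Prdx1, chr4:116685440-116685499, plus strand: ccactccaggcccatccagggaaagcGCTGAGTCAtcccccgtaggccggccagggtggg
In Gclm the match overlapped a match of the metal response element. A match describes letters in a window and not a site in use.

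**Figure D1:**
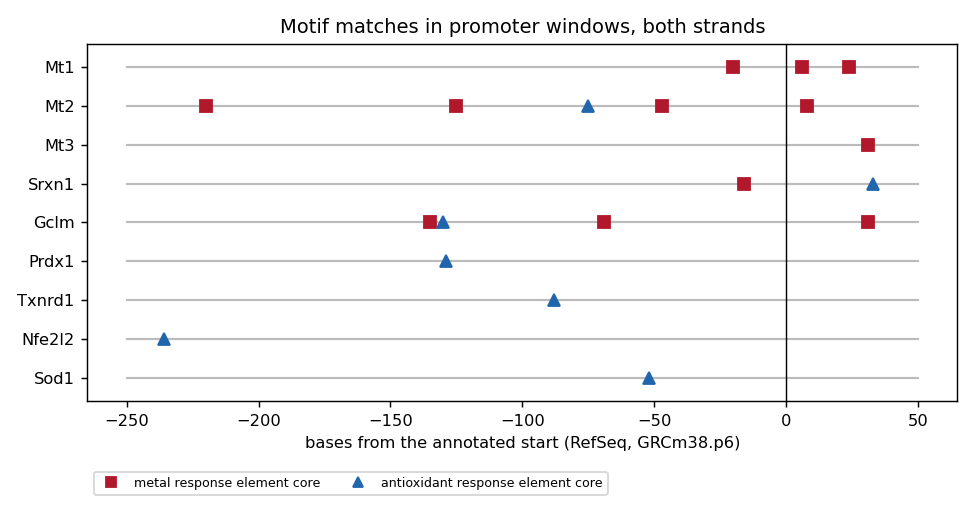
Position of each match of the metal response element core (red squares) and the antioxidant response element core (blue triangles) in promoter windows of 9 genes, in bases from the annotated start, searched on both strands. Mt2 carries 4 red squares spread over the window, whereas the 3 of Mt1 lie between bases -23 and 27 of the annotated start. Sequence outside the windows was not searched.

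Most of the genes were abundant. At 1 CPM (counts scaled by TMM to a common library total) or more in every library, 40 of the 42 were detected, against 23.2% of all genes of the table and 61.6% of the genes annotated as protein coding. The exceptions were Gpx2, a glutathione peroxidase of gut epithelium, and the NADPH oxidase gene Nox4. For comparisons between genes, counts were divided by exon length and scaled to a common total within each library (TPM). The 42 genes had a median of 70.5 TPM, with medians of 61.9, 77.4 and 71.7 TPM in replicates 1, 2 and 3, and the detected genes of the table had a median of 20.1 TPM. Of the 40 detected genes, 34 stood above that median, where 50% of all detected genes do by construction, and 15 were in the highest 10% of detected genes, at 130.2 TPM or more. Together the 42 genes summed to 8217, 8561 and 9096 TPM in replicates 1, 2 and 3, and Selenop and Selenow gave the largest parts of these sums. Values below are means ± SD over the 3 libraries in TPM, unless CPM is named.

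**Figure D2:**
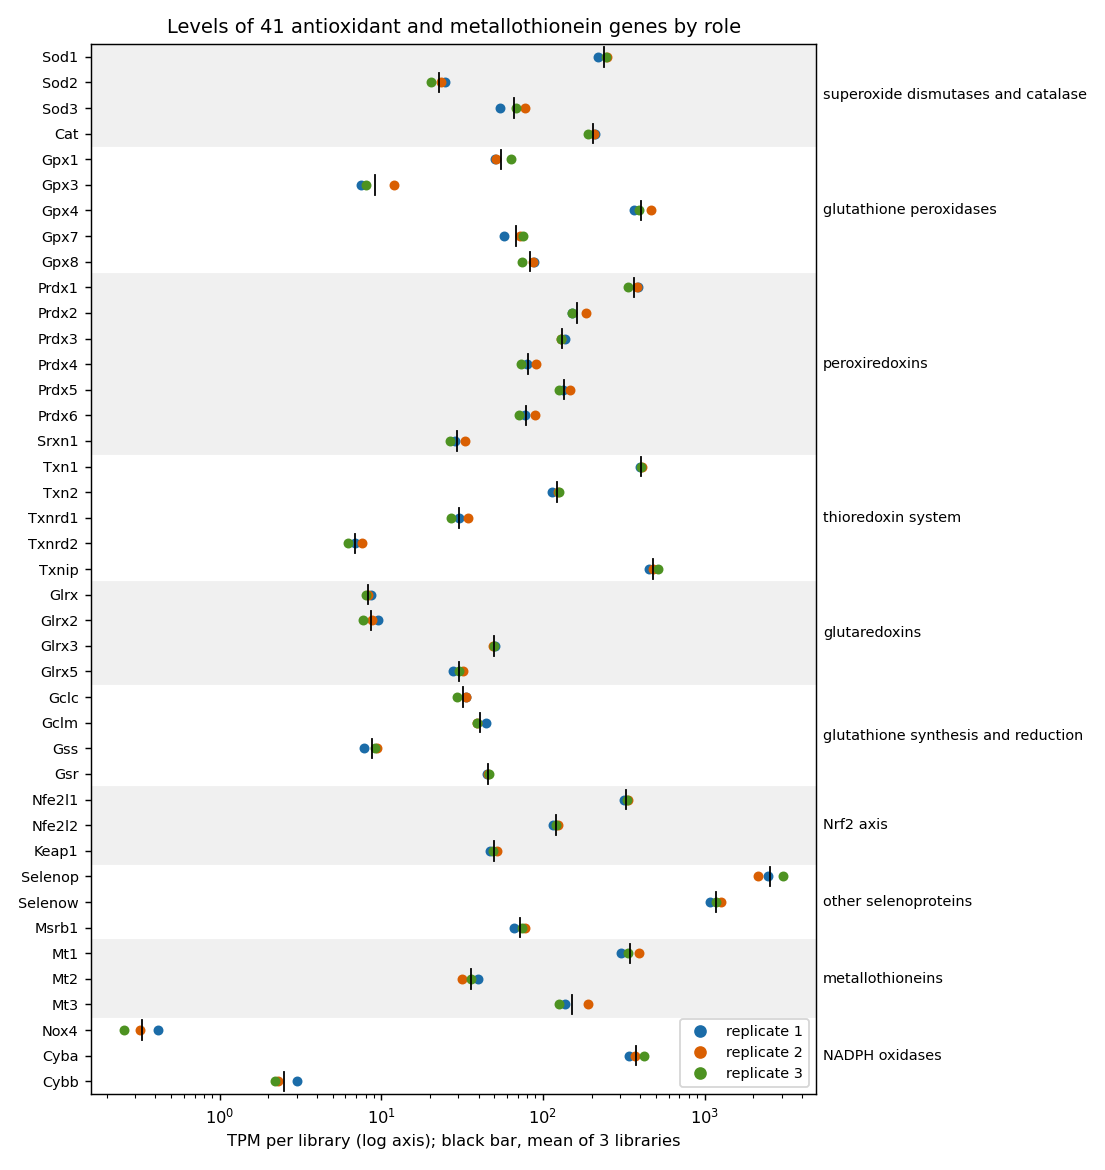
TPM of each gene in each library on a log axis, by role, with points for replicates 1, 2 and 3 and a black bar for their mean. Gpx2, with 2, 1 and 0 counts, is not drawn. Levels run from Nox4 at 0.332 TPM to Selenop at 2555 TPM, and the points of a gene lie close together beside the distances between genes.

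Selenop encodes selenoprotein P, the secreted carrier that delivers selenium to brain. It had 2475, 2128 and 3061 TPM in replicates 1, 2 and 3, and it ranked 32 among the 12826 detected genes with a length. Replicate 3 was the highest and replicate 2 the lowest. Selenow, a small cytosolic selenoprotein, had 1079, 1269 and 1179 TPM and ranked 91. Both exceeded every other gene of the group in each library. Msrb1, a selenoprotein that repairs oxidized methionine, was far lower at 72.6 ± 5.70 TPM. In GENCODE M21, 15.4% of the exon length of Selenop lies under Ccdc152 on the opposite strand. Ccdc152 had 936, 760 and 704 counts over its whole length, against 265385, 240869 and 380040 counts for Selenop.

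Among superoxide dismutases the cytosolic Sod1 led. It had 218.9, 248 and 245 TPM in replicates 1, 2 and 3. The secreted enzyme Sod3, which binds to matrix of vessel walls, had 54.0, 77.6 and 68.6 TPM. The mitochondrial Sod2 was the lowest with 24.7, 23.5 and 20.4 TPM. The 3 genes did not overlap in any library, and Sod1 stood 10.5 ± 1.59 times above Sod2 and 3.61 ± 0.429 times above Sod3. With the longest transcript in place of the union of exons the ratio of Sod1 to Sod2 was 6.14. Cat, which encodes the peroxisomal catalase, had 211, 208 and 191 TPM, close below Sod1 in each library. This closeness rests on the lengths used, 3970 bases for Sod1 and 2613 for Cat. Both are the same for the exon union and the longest transcript, so the change of length could not test it. Without length scaling Sod1 had 275 ± 20.95 CPM and Cat 155 ± 4.90 CPM.

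Among glutathione peroxidases the selenoenzyme Gpx4, which reduces lipid hydroperoxides in membranes, held 65.3 ± 2.14% of the summed level of the family. It had 364, 465.5 and 392.5 TPM in replicates 1, 2 and 3. Gpx8 and Gpx7, peroxidases of the endoplasmic reticulum, followed with 82.9 ± 7.52 and 68.4 ± 9.50 TPM, and their ranges overlapped. Gpx1, the general cytosolic enzyme, had 50.5, 51.1 and 63.9 TPM, so Gpx4 stood 7.48 ± 1.501 times above it. With the longest transcripts that ratio was 9.64, and Gpx1 had 57.8 TPM beside Gpx7 at 53.3 TPM and Gpx8 at 65.0 TPM. The order of Gpx1 and Gpx7 thus depended on the length used. Gpx3, secreted and best known from kidney and plasma, had 7.47, 11.99 and 8.04 TPM. Gpx2 had 2, 1 and 0 counts, at or under the limit of 3 counts in every library, which corresponds to 0.0199 to 0.0234 CPM. A copy annotated as Gpx4-ps2 had 945, 976 and 795 counts, against 23676, 31963 and 29562 counts for Gpx4, so a small part of Gpx4 reads may have been split between them.

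Peroxiredoxins reduce peroxide with electrons from thioredoxin, and each of the 6 was detected. Prdx1, a cytosolic member, led with 385, 383 and 336 TPM in replicates 1, 2 and 3. Prdx2, the cytosolic member abundant in red cells and neurons, had 151, 185 and 152 TPM. Prdx5 with 135.6 ± 10.4 TPM and the mitochondrial Prdx3 with 132 ± 4.71 TPM had overlapping ranges. Prdx4 of the endoplasmic reticulum at 81.2 ± 9.36 TPM and Prdx6, which uses glutathione, at 79.1 ± 9.20 TPM overlapped as well. Prdx1 was above each of the others in all 3 libraries, by 2.28 ± 0.251 times over Prdx2. With the longest transcripts this ratio was 1.60, and Prdx4 had 130 TPM, Prdx5 124 TPM, Prdx6 116 TPM and Prdx3 103 TPM. The order of these lower members thus depended on the length used. Srxn1 encodes sulfiredoxin, which restores overoxidized peroxiredoxins, and had 28.4, 33.0 and 26.8 TPM. Exons of Trmt112 on the opposite strand cover 19.1% of Prdx5, and exons of Junb and Rnaseh2a cover 11.5% of Prdx2. The annotated copies Prdx1-ps and Prdx2-ps1 had at most 1 and 31 counts.

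In the thioredoxin system the messenger of the inhibitor was more abundant than that of the carrier. Protein was not measured. Txnip, whose protein binds and inhibits thioredoxin and limits glucose uptake, had 452, 481 and 517 TPM in replicates 1, 2 and 3. Txn1, the cytosolic thioredoxin, had 397, 410.1 and 403 TPM. The ratio of Txnip to Txn1 was 1.14, 1.17 and 1.28 in the single mice, although 19.4% of Txnip lies under the antisense gene Gm15441, which had 76, 90 and 83 counts. The mitochondrial pair was lower, with Txn2 at 122 ± 6.80 TPM and its reductase Txnrd2 at 6.91 ± 0.687 TPM. Txnrd1, the cytosolic reductase and a selenoprotein, had 30.1, 34.2 and 27.0 TPM. In both compartments the messenger of the carrier exceeded that of its reductase, by 13.4 ± 1.47 times for Txn1 over Txnrd1 and 17.7 ± 2.25 times for Txn2 over Txnrd2. These ratios moved to 6.83 and 23.8 with the longest transcript of each gene.

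Glutaredoxins, which use glutathione to reduce protein disulfides or to carry iron-sulfur clusters, were modest. Glrx3, with a role in iron handling in the cytosol, had 49.8 ± 0.959 TPM. Glrx5, which serves mitochondrial iron-sulfur clusters, had 30.1 ± 2.21 TPM. Glrx2 with 8.66 ± 0.906 TPM and Glrx with 8.33 ± 0.339 TPM were the lowest of the family, with overlapping ranges. With the longest transcripts Glrx2 had 15.2 TPM and Glrx 8.435 TPM. Glutathione is built by glutamate-cysteine ligase, of which Gclc is the catalytic and Gclm the modifier subunit, and by the synthetase Gss. Gclm had 44.2, 39.2 and 38.9 TPM in replicates 1, 2 and 3, and Gclc had 33.3, 33.5 and 29.5 TPM. The messenger of the modifier subunit was the higher one in 3 of 3 mice, by 1.27 ± 0.0900 times. Gss, at 8.76 ± 0.867 TPM, was the lowest step of synthesis, with 15.4% of its exons under genes of the opposite strand. Gsr, the reductase that regenerates glutathione, had 45.6 ± 0.741 TPM.

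All 3 genes of the Nrf2 axis were detected, and their proportions hardly varied between mice. Nfe2l1, which encodes the NRF2 relative NRF1 that senses proteasome capacity, had 318, 337 and 332 TPM in replicates 1, 2 and 3. Nfe2l2, which encodes NRF2, had 115.5, 123 and 121 TPM. Keap1 had 47.3, 52.2 and 49.4 TPM. The ranges did not overlap. The ratio of Nfe2l2 to Keap1 was 2.44, 2.36 and 2.45 in the single mice, and that of Nfe2l1 to Nfe2l2 was 2.75, 2.74 and 2.74. With the longest transcripts the mean ratios moved to 2.86 and 2.09, so their size depended on the length used. The antisense gene Gm16754 covers 10.9% of the exon length of Keap1. Messenger levels say nothing of NRF2 protein, which is controlled mainly by its breakdown.

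Mt1 was the most abundant metallothionein. It had 302, 394 and 337 TPM in replicates 1, 2 and 3. Mt3, a brain metallothionein known from astrocytes and neurons, had 136, 189 and 126 TPM. Mt2 had 39.5, 31.7 and 36.1 TPM, below both in every library. Mt1 stood 2.33 ± 0.314 times above Mt3, or 1.34 times with the longest transcripts, and 9.81 ± 2.42 times above Mt2. The count of Mt2 is uncertain: 73.5% of its exon length lies under the antisense gene Gm45774 in GENCODE M21, the largest such share among the 42 genes, and Gm45774 itself had 8, 6 and 14 counts. When the length of Mt2 was limited to the 156 bases outside that overlap, an alternative chosen after seeing the data, it had 149, 119.7 and 136 TPM in replicates 1, 2 and 3 and the ratio of Mt1 to Mt2 was 2.60. On that length Mt2 stood above Mt3 in replicates 1 and 3, so the order of Mt2 and Mt3 is not settled. Of the other 41 genes, 8 had an overlap, of at most 19.4%.

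NADPH oxidases make superoxide or peroxide on purpose, and p22phox, encoded by Cyba, is the membrane partner of the catalytic subunits. Cyba had 340.1, 371 and 425 TPM in replicates 1, 2 and 3. Cybb, the catalytic subunit of phagocytes, had 3.00, 2.30 and 2.20 TPM. Nox4, the catalytic subunit known from kidney and vascular cells, had 0.416, 0.323 and 0.257 TPM. Cyba was 156 ± 40.3 times above Cybb, and Cybb was 7.63 ± 0.814 times above Nox4, or 4.32 times with the longest transcripts. Nox4 had 133, 109 and 95 counts, or 1.02, 0.780 and 0.655 CPM, so it was present but under the detection limit in 2 of 3 libraries.

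By compartment, as known for the proteins, the 21 cytosolic members summed to 3813 ± 231 TPM and the 6 mitochondrial ones to 322 ± 3.07 TPM. The sums cover unlike numbers of genes. Gpx4 and Prdx5, assigned to several compartments, summed to 543 ± 61.1 TPM and are in neither sum. The mitochondrial sum was 320.0, 325 and 320.3 TPM in replicates 1, 2 and 3. Messengers encoded by the mitochondrial genome summed to 25710, 13560 and 13880 CPM over 7 genes of 7 detected. Replicate 1 had the most mitochondrially encoded RNA. The mice are compared in TMM-scaled CPM below.

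The mice were compared gene by gene. No gene of the 42 passed the test of spread in edgeR (a quasi-likelihood fit of all 18087 testable genes, in which each gene's dispersion is set against the trend, with Benjamini-Hochberg adjustment), where 0.0829% of all genes did at an adjusted p under 0.05. A count of 0 among 42 genes is near that share. Of the 42, 41 could be tested. Their adjusted p-values were 0.99 or more, and none had an unadjusted p under 0.05, against 5.18% of all genes. DESeq2 marked 0 of them as dispersion outliers, against 0.449% of all genes. The lowest unadjusted edgeR p was 0.0659, for Mt3. A missed threshold does not show that the mice had equal levels.

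The ratio of the highest to the lowest library, on TMM-scaled CPM, had a median of 1.17 over the 40 detected members and 1.201 over all 13211 detected genes. It reached 1.5 in 2 of the 40, against 12.2% of all detected genes, and 2 in none, against 2.41%. The pair was Gpx3, with 3.93, 6.20 and 4.39 CPM in replicates 1, 2 and 3, and Selenop, with 2039, 1723 and 2618 CPM. Gpx3 was highest in replicate 2 (1.58-fold range) and Selenop in replicate 3 (1.52-fold range). Each rests on its extreme libraries: without replicate 1 only Selenop reached 1.5-fold, without replicate 3 only Gpx3, and without replicate 2 neither did. Mt3 (1.42-fold), with 42.1, 57.5 and 40.4 CPM, and Sod3 (1.41-fold), with 58.5, 82.6 and 77.2 CPM, came next. At the other end Txn1 had a range of 1.05-fold, with 121, 123 and 127 CPM, and Cat 1.07-fold, with 160.1, 155 and 150.3 CPM. Of the 40, 11 were highest in replicate 1, 15 in replicate 2 and 14 in replicate 3, against 34.5%, 28.7% and 36.8% of all detected genes. The lowest library was replicate 1 for 18, replicate 2 for 9 and replicate 3 for 13, against 38.6%, 30.8% and 30.6% of all detected genes.

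**Figure D3:**
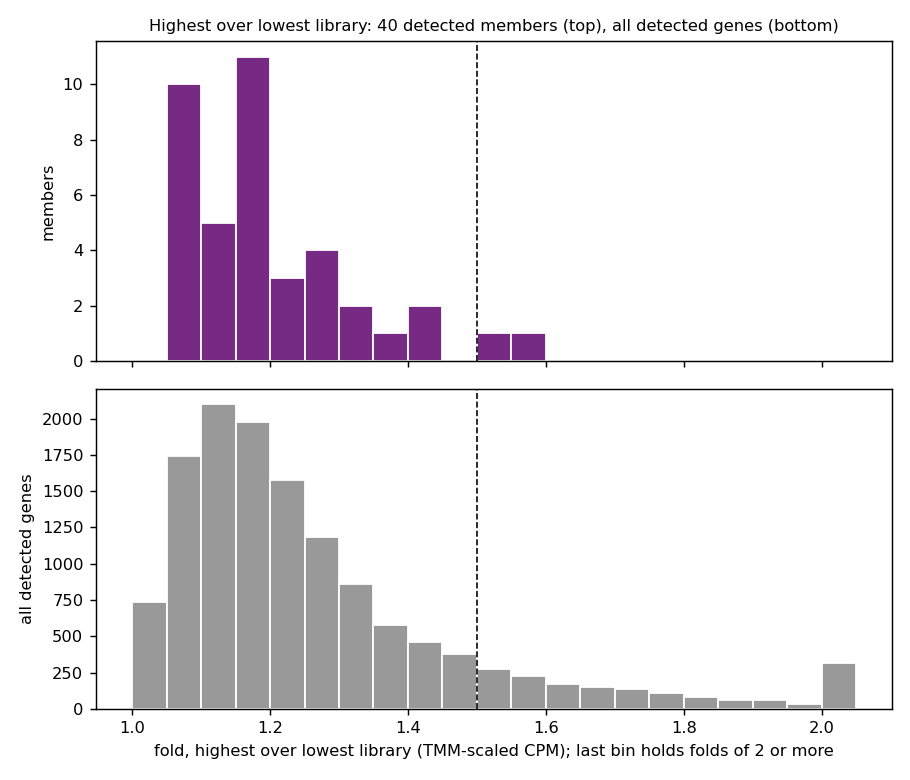
Number of genes by the ratio of the highest to the lowest library, for the 40 detected members (top) and all 13211 detected genes (bottom), with a dashed line at 1.5-fold. The 2 members to the right of the line are Selenop and Gpx3, and the last bin of the lower panel holds all ratios of 2 or more.

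The library with the highest value is given by family as a description. Among the 6 peroxiredoxins and Srxn1, 5 genes were highest in replicate 2: Srxn1 with 23.2, 26.5 and 22.7 CPM in replicates 1, 2 and 3, and Prdx2, Prdx4, Prdx5 and Prdx6. Of all detected genes 28.7% were. In the thioredoxin system Txn1, Txn2 and Txnip were highest in replicate 3, and both reductases in replicate 2, Txnrd1 with 61.9, 69.1 and 57.6 CPM and Txnrd2 with 8.81, 9.53 and 8.25 CPM. The 3 genes of the Nrf2 axis were lowest in replicate 1, as 38.6% of all detected genes were. Among metallothioneins, Mt1, with 109, 139.9 and 126.5 CPM, and Mt3 were highest in replicate 2, where Mt2, with 6.73, 5.32 and 6.38 CPM and an uncertain count, was lowest. None of these differences was tested as a group.

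**Figure D4:**
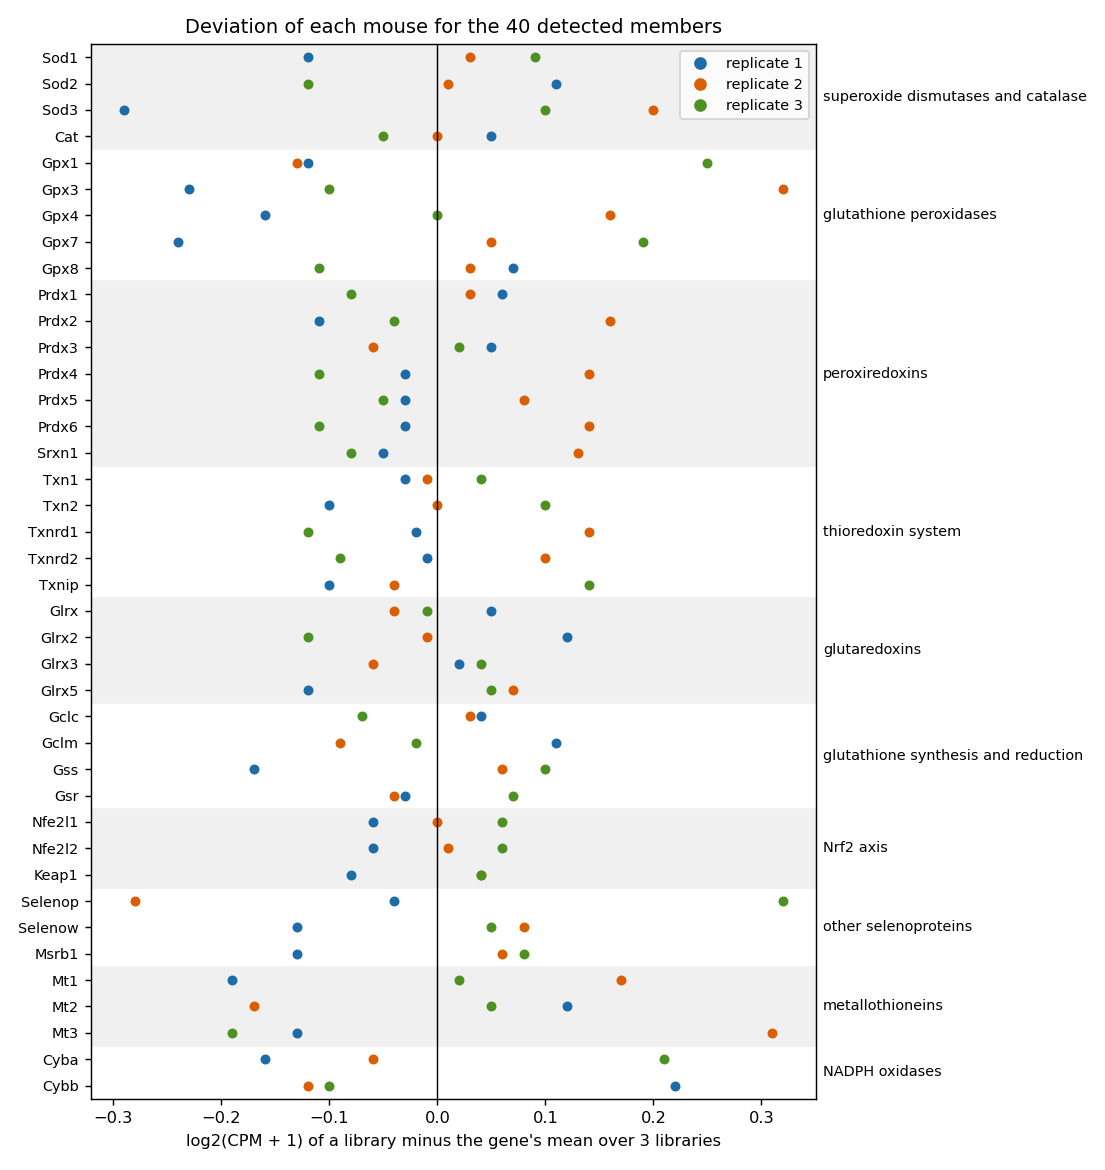
For each of the 40 detected members, log2(CPM + 1) in replicates 1, 2 and 3 minus the gene's own mean. The points of most genes lie close to 0, and the widest spreads are those of Selenop, Gpx3, Mt3 and Sod3.

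Marker genes of the cells a fragment can hold were read beside these values. Depth was 128428355 to 150449539 counts per library. All 8 endothelial markers were detected, with summed levels of 13170 to 15570 CPM, and so were all 7 pericyte and all 5 smooth muscle markers (3514 to 3715 and 4756 to 5440 CPM). Microglial markers, 7 of 7 detected, summed to 5661, 4231 and 5027 CPM in replicates 1, 2 and 3, beside Cybb at 5.06, 3.80 and 3.84 CPM. Both were highest in replicate 1, as 34.5% of all detected genes were. Astrocyte markers, 7 of 7 detected, summed to 1727, 1935 and 1050.0 CPM and were highest in replicate 2, as Mt3 and 28.7% of all detected genes were. Mt3 had 42.1, 57.5 and 40.4 CPM, so its replicates 1 and 3 lay closer together than those of the astrocyte sum. Choroid plexus and ependymal markers, 5 of 5 detected, summed to 6805, 8121 and 5015 CPM, most of it from Ttr, and Gpx3 too was highest in replicate 2. On the mean log2 deviations of the same markers (0.25, 0.11 and -0.36) replicate 1 was the highest. The part of these cells in the results was not tested. In bulk RNA, fewer cells of a type and less RNA per cell cannot be told apart.

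Markers of blood, pituitary and stress differed between the mice. Erythroid markers, 5 of 6 detected with Slc4a1 under the limit, summed to 1089, 134 and 62.5 CPM in replicates 1, 2 and 3. Prdx2 was lowest in replicate 1, where they were highest, and 38.6% of all detected genes were lowest there too. The part of red cells in the level of Prdx2 was not tested. Early response genes, 7 of 7 detected, summed to 413, 1395 and 901 CPM, and pituitary genes, with Pomc the 1 of 5 that was detected in every library, to 20.4, 1432 and 17.8 CPM. Both were highest in replicate 2, as 15 of the 40 members and 28.7% of all detected genes were, and their part was not tested. Genes known to respond to glucocorticoids, 7 of 7 detected, summed to 1067, 1072 and 1249 CPM, with mean log2 deviations of 0.13, -0.43 and 0.31, so replicate 3 was highest and the lowest library depended on the measure. Leukocyte and border macrophage markers (4 of 7 detected, with Lyve1, Pf4 and S100a8 under the limit) summed to 41.4 to 64.0 CPM. Neuronal markers summed to 94.6 to 117 CPM, oligodendrocyte markers to 155 to 171 CPM and fibroblast markers to 119 to 142 CPM.

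Of 95 further genes of the same pathways, 83 were detected, with a median of 34.4 TPM over all 95. None of the 88 that could be tested varied between mice in the edgeR test, and 12 of the 83 reached a 1.5-fold range, against the 12.2% of all detected genes. The dimer partners and regulators of NRF2 were led by Sqstm1, the autophagy adaptor p62 that binds KEAP1, at 478 ± 39.9 TPM, and by Cul3, the ubiquitin ligase scaffold that KEAP1 recruits, at 71.8 ± 11.4 TPM. Nfe2 and Nfe2l3, relatives of NRF2, were under the limit. All 13 further NRF2 targets were detected. Fth1, the ferritin heavy chain, had 1477 ± 28.7 TPM, and Slc3a2, the partner chain of cystine and amino acid carriers, 874 ± 156 TPM. Slc7a11, the cystine carrier itself, had only 3.05, 2.22 and 1.47 TPM in replicates 1, 2 and 3. Fth1 has many processed copies in the genome, so its count is uncertain.

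Of 20 glutathione transferases and genes of glutathione turnover 18 were detected, with a median of 20.2 TPM over the list, close to that of all detected genes. The highest were transferases. Gstm1 had 624 ± 83.7 TPM and Gsta4, which clears lipid aldehydes, 502 ± 63.2 TPM. Gstm genes are close paralogs whose reads can be split. Of 14 further selenoproteins and genes of selenium handling, 13 were detected, led by Selenok with 249 ± 14.3 TPM and Selenom with 239 ± 30.2 TPM, both proteins of the endoplasmic reticulum. Lrp8, a receptor that takes up selenoprotein P, had 157, 142 and 273.5 CPM in replicates 1, 2 and 3. Its libraries ran in the order of Selenop, with replicate 3 highest, as in 36.8% of all detected genes, and replicate 2 lowest, as in 30.8%. A link between these genes was not tested. The range of Lrp8 was 1.92-fold (edgeR adjusted p = 0.76).

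All 12 further thioredoxin fold genes and methionine sulfoxide reductases were detected, with the disulfide isomerases Pdia3 at 718 ± 67.4 TPM and P4hb at 700.5 ± 9.71 TPM the highest. The 7 relatives and regulators of Txnip were all detected, with a median of 10.4 TPM, led by Mlx, a partner of the glucose-sensing factors that drive Txnip, at 46.9 ± 2.38 TPM and the arrestin-domain gene Arrdc1 at 27.6 ± 3.15 TPM. Zinc transport was led by the importer Slc39a10 at 383 ± 21.99 TPM and the exporter Slc30a1, an MTF1 target, at 298 ± 12.3 TPM. Mt4, a metallothionein of squamous epithelium, was under the limit. Of 12 further NADPH oxidase genes 6 were detected, with the small GTPase Rac1 at 432 ± 34.3 TPM and Ncf1, a cytosolic subunit of the phagocyte oxidase, at 49.7 ± 6.55 TPM. Nox1, Nox3, Noxo1, Noxa1, Duox1 and Duox2 were under the limit. The widest range of all these genes was that of Maff, a small MAF partner of NRF2 that is itself inducible, with 25.2, 24.6 and 57.9 CPM (2.36-fold, edgeR adjusted p = 0.323), followed by Slc7a11 at 2.00-fold (edgeR adjusted p = 0.93).

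**Figure D5:**
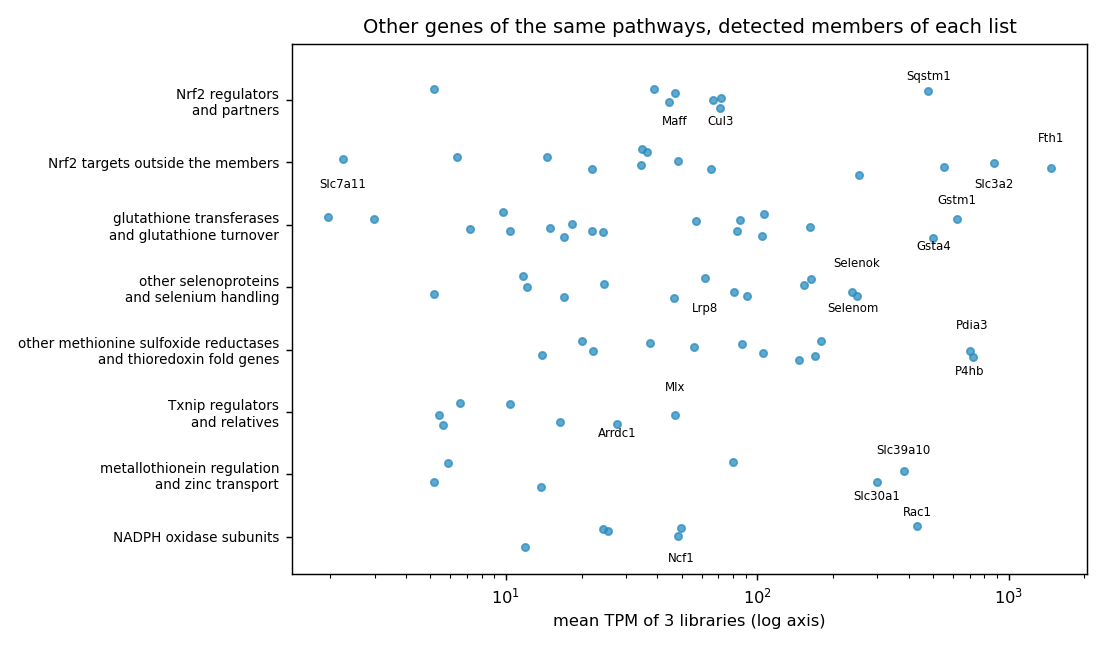
Mean TPM of the 83 detected genes of 8 further lists on a log axis, 1 point per gene with vertical scatter for legibility. Named are the 2 highest genes of each list and the 3 with the widest range between mice (Maff, Slc7a11 and Lrp8).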

How the data were processed

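The deposited table holds raw counts per gene from the authors, not normalized. GRCm39 is the genome build, and featureCounts with Subread 1.4.6-p5 the software, per the submitters' processing notes. Which annotation and strand setting were used, and how multi-mapping reads were treated, is not given in the sources used here, so counts of overlapping genes are uncertain. Per the labels' protocols, stranded, polyA-selected libraries were made from 400 ng of RNA and read as pairs of 150 bp. Pairs of libraries differed far beyond sampling noise (chi-square per gene averaging 123 to 158 where noise alone gives about 1). The design text speaks of separate mice.

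CPM used TMM factors (1.01, 1.02 and 0.965) from edgeR 4.0.16 in R 4.3.3. TPM were computed from counts and the union of exons in GENCODE M21 (GRCm38, lengths and overlaps only), matched by symbol for 49086 genes with 98.3% of the counts. Spread between mice was tested in edgeR with an intercept-only quasi-likelihood fit after filterByExpr, by an upper-tail F test of each dispersion against its trend. The procedure was tested on simulated data, where it missed most 2-fold shifts in a single library. No detected member reached a 2-fold range, so the lack of calls among them says little about differences of that size. DESeq2 1.42.0 served as an alternative. Tables and figures were made in Python 3.11.15 with pandas 2.3.3, numpy 2.4.6 and matplotlib 3.10.9. Intervals of counting error were not needed beside the spread of mice; a count of 0 allows up to 3 counts, which covers counting error only.

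The 42 genes and the further lists were chosen with earlier results of these data known. Named are all 42 genes, the 2 highest of each further list by TPM and the 3 with the widest range. Members named for their direction by library, and further genes named as under the limit, were picked after their values were seen. A marker of the erythroid list is not reported here. Alternatives covered scaling, filters, the dispersion prior, detection and fold limits, gene length and leaving out each replicate.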

Additional observations from a re-analysis of the deposited data

How the results depend on the processing

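The count of genes varying between mice over the whole table, 15, was 173 with no filter on low counts, 0 with a robust prior in edgeR (785 at an unadjusted p under 0.05), 137 as DESeq2 dispersion outliers and 7 to 80 without 1 replicate. None of the 42 antioxidant and metallothionein genes was called under any of these settings, nor with DESeq2 size factors. At an unadjusted p under 0.05, edgeR gave 1 of them with no filter, without replicate 1 and without replicate 3. Over all tested genes these settings gave 1674 of 30513, 1073 of 18436 and 975 of 18482. The 2 genes with a 1.5-fold range became 0 at 2-fold and 0 to 1 without 1 replicate. With library totals Gpx3 and Mt3 reached 1.5-fold in place of Gpx3 and Selenop. The count of detected members ran from 38 at 5 CPM to 41 at 0.5 CPM. The median level was 58.3 TPM with the longest transcript and 68.4 to 74.8 TPM without 1 replicate. The ratio of Mt1 to Mt2 was 2.60 with overlapped exon bases left out. All 42 levels of single genes stayed within 1 SD with DESeq2 size factors. No paired analysis was possible because all 3 libraries belong to 1 group. The effect of depth was not measured.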
